A study of Mus musculus with 354 samples.

Results

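The response of 1 mouse strain, AU8004, to tolvaptan was measured in liver. AU8004 is an inbred strain of the Collaborative Cross, a panel of mouse lines bred from several founder strains. The 8 arrays are those labelled with the strain AU8004, out of 354 arrays from 45 strains. In this strain 4 animals received vehicle and 4 received tolvaptan. All were males of about 8 to 10 weeks, acclimated for about 7 days and fasted for about 18 h, and the time label is 24 h. Each array holds a separate animal and reads a diced piece of the median lobe, so every value is a mixture of liver cell types. An inbred strain is 1 genotype, and its 4 animals per group measure the spread between animals and not between genotypes. The strain was selected on its own tolvaptan differences, with earlier results of these data known. P-values of its treatment contrast therefore describe these 8 arrays. A second adjustment, over all genes and all 45 strains together, is given beside them. It was no stricter here, since calls in other strains enter its cutoff, and it does not remove the selection.

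Tolvaptan blocks the vasopressin V2 receptor, which acts mainly in the kidney collecting duct, and liver injury is a known adverse effect of the drug. Hepatocytes make cholesterol from acetyl-CoA through mevalonate, squalene and lanosterol. When sterol in the endoplasmic reticulum is low, the transcription factor SREBP2 is released from its retention protein INSIG and is processed in the Golgi, and it then activates nearly every gene of this route. SREBP factors bind sterol regulatory elements together with partners such as NF-Y, which binds the CCAAT box. The related factor SREBP1c acts mainly on fatty acid synthesis.

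Promoters of 4 genes with large differences in AU8004 are shown, because members of the route moved together in this strain. Each window holds the 250 bases before and the 50 after a RefSeq start site on GRCm38.p6, 5′ to 3′ on the strand of the gene, and capitals mark CCAAT on either strand (ATTGG when read from the opposite one).
Mvk, chr5:114444019-114444318, plus strand: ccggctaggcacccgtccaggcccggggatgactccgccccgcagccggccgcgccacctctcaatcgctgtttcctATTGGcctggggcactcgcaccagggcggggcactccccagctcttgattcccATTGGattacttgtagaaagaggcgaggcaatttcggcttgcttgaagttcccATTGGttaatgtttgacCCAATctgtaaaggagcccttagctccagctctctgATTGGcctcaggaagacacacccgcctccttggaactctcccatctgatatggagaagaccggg
Mvd, chr8:122443373-122443672, minus strand: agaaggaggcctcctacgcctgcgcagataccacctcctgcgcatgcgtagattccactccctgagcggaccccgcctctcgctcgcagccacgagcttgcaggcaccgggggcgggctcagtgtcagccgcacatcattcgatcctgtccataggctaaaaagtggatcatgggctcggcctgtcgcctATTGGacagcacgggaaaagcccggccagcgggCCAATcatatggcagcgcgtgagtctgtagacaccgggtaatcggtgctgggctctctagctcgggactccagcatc
Msmo1, chr8:64733529-64733828, minus strand: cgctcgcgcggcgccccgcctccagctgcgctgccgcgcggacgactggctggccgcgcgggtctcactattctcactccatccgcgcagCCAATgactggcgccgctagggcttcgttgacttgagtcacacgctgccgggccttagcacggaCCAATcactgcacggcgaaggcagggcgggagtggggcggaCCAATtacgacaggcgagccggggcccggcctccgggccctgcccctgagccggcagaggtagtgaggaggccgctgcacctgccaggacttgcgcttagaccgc
Nsdhl, chrX:72918271-72918570, plus strand: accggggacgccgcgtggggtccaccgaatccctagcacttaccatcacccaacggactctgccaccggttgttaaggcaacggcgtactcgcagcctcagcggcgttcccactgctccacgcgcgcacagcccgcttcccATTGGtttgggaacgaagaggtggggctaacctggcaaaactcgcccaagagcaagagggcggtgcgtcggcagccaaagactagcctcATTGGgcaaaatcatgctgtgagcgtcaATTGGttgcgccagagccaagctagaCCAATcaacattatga
The Mvk window overlaps that of Mmab by 259 bases on opposite strands, so this stretch serves as the window of both genes and holds 5 CCAAT matches. Windows were found for 14 of the 17 measured genes made up by the cholesterol synthesis list and Mmab. CCAAT on either strand lay in at least 1 window of 14 of these 14 genes and in 14 of their 16 windows, against 37.4% of all 32851 windows of 300 bases. The sterol regulatory element in the form TCACNCCAC lay in 0 of the 14 genes and in 1.24% of all windows. A match describes letters in a window and shows neither binding nor its absence.

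Expression is given on the log2 scale of RMA, where 1 unit is a doubling, and a typical array had a median of 2.89 over its probe sets. The 8 AU8004 arrays correlated with each other at 0.968 to 0.993 over all genes tested, and tolvaptan animal 1 lay a little apart (0.968 to 0.983). Over 500 probe sets that separate the strains, each of the 8 correlated at 0.875 or more with the other arrays of AU8004. In 19 other strains, 34 arrays correlated at 0.294 or less with their labelled strain. Counts of called genes are therefore also given without these 34 arrays. Ranks of single genes among strains use all arrays. Animals 1 to 3 of each AU8004 group were scanned on 1 date (scan 3) and animal 4 of each on another (scan 1), so scan and treatment were balanced. The liver label fitted the hepatocyte markers: Alb lay between 13.5 and 13.8, Apoa1 between 13.5 and 13.8 and Hnf4a between 11.1 and 11.7 in all 8 animals. The bile duct marker Krt19 (2.19 to 2.77) and the lymphocyte marker Nkg7 (2.26 to 3.03) lay near the array median. Cd3e of T cells (3.62 to 4.36) and Cd79a of B cells (3.93 to 5.68) lay above it in all 8 animals. So did the erythroid marker Alas2 (6.81 to 8.04), the pancreas marker Cela1 (5.78 to 6.56) and the kidney marker Kap (5.13 to 5.79).

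Tolvaptan was compared with vehicle in AU8004 to ask which liver transcripts differed in this strain. The clearest difference was in cholesterol synthesis. Mvk, mevalonate kinase, was 3.69-fold higher and Mmab, the adenosyltransferase for vitamin B12 whose promoter adjoins that of Mvk, 2.64-fold. Mvd, the decarboxylase that ends the mevalonate steps, was higher by 3.15 on the log2 scale in one probe set and by 1.90 in another, from vehicle values near the array median. Every measured member of the list had a positive difference, whereas no gene passed the test in the lower direction. In the limma fit over all arrays, 6 of 14125 genes (0.0425%) were called at an adjusted p under 0.05, all higher, and 965 had an unadjusted p under 0.05 (752 higher, 213 lower). A fit on the 8 AU8004 arrays alone, with scan as a term, called 33 genes (0.234%), all higher. The fit over all arrays without the 34 arrays off their labelled strain called 29 genes (0.205%), 27 higher and 2 lower. Adjustment over all genes and 45 strains called 7 genes, the 6 above and Lss. Calls in other strains ease the cutoff of that adjustment, so the added gene is not a call under a stricter test. The groups of 4 did not overlap, with tolvaptan higher, for 495 genes (3.5%) and, with tolvaptan lower, for 117 genes (0.828%). Without vehicle animal 1 or tolvaptan animal 1 the fit over all arrays called 0 genes, and within scan 3 alone, with 3 animals against 3, it called 0 although 1318 genes had an unadjusted p under 0.05. Without vehicle animal 2 or 4 it called 1.

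Mvk catalyses the phosphorylation of mevalonate. It was 5.68, 5.98, 5.99 and 6.06 in the vehicle animals and 8.08, 7.49, 7.55 and 8.12 in the tolvaptan animals, in the order of animals 1 to 4. The difference was 1.88 ± 0.40 (SE; adjusted p = 0.0253, and 0.01 over all strains). Mvd converts mevalonate diphosphate to isopentenyl diphosphate. Its values were 3.46, 3.31, 4.05 and 2.98 with vehicle and 6.62, 6.53, 6.67 and 6.61 with tolvaptan. The 4 tolvaptan animals thus lay close together (SD 0.06, n = 4), far above the vehicle animals, which were near the array median. The difference was 3.15 ± 0.64 (SE; adjusted p = 0.018, and 0.00502 over all strains). A second probe set of Mvd gave 1.90 and a second one of Mvk 1.97.

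Mmab is not an enzyme of the cholesterol route and was not on the list. Its values were 3.75, 3.78, 4.42 and 4.11 with vehicle and 4.92, 5.65, 5.60 and 5.52 with tolvaptan, with no overlap. The difference was 1.40 ± 0.31 (SE; adjusted p = 0.029). Its 4 probe sets differed in the same direction, by 0.18 to 1.40, the smallest in a probe set near 2. The other 3 genes called in the fit over all arrays were dim. Chil1, a chitinase-like secreted protein, rose by 1.19 from a vehicle mean of 2.06 (adjusted p = 0.029). Dnah1, an axonemal dynein heavy chain, rose by 0.85 from 2.55 (adjusted p = 0.0293), and 2310034G01Rik by 0.80 from 2.97 (adjusted p = 0.0253). For Chil1 the tolvaptan animals spread from 2.21 to 4.10. Dnah1 lay at 4.35 in tolvaptan animal 1 and between 2.97 and 3.30 in the others, and 2310034G01Rik overlapped between the groups. None of these 3 genes passed in the fit on the 8 arrays alone (adjusted p = 0.309, 0.409 and 0.408), where Mvd, Mvk and Mmab did.

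The cholesterol synthesis list held 25 genes, of which 16 were tested. The other members were not analysed here. The difference was positive for 16 of 16 members, against 8465 of all 14125 genes, and the median was 1.63, against 0.06 over all genes. All members were also positive in some other strains, as given below. The groups did not overlap for 12 members, all higher, against 3.5% of all genes. In the fit over all arrays 2 members were called (Mvk and Mvd), in the fit on the 8 arrays 10, and without the off-strain arrays 8. The signs held on both scan dates, with 16 of 16 positive and a median of 1.62 in scan 1 and of 1.60 in scan 3.

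**Figure D1:**
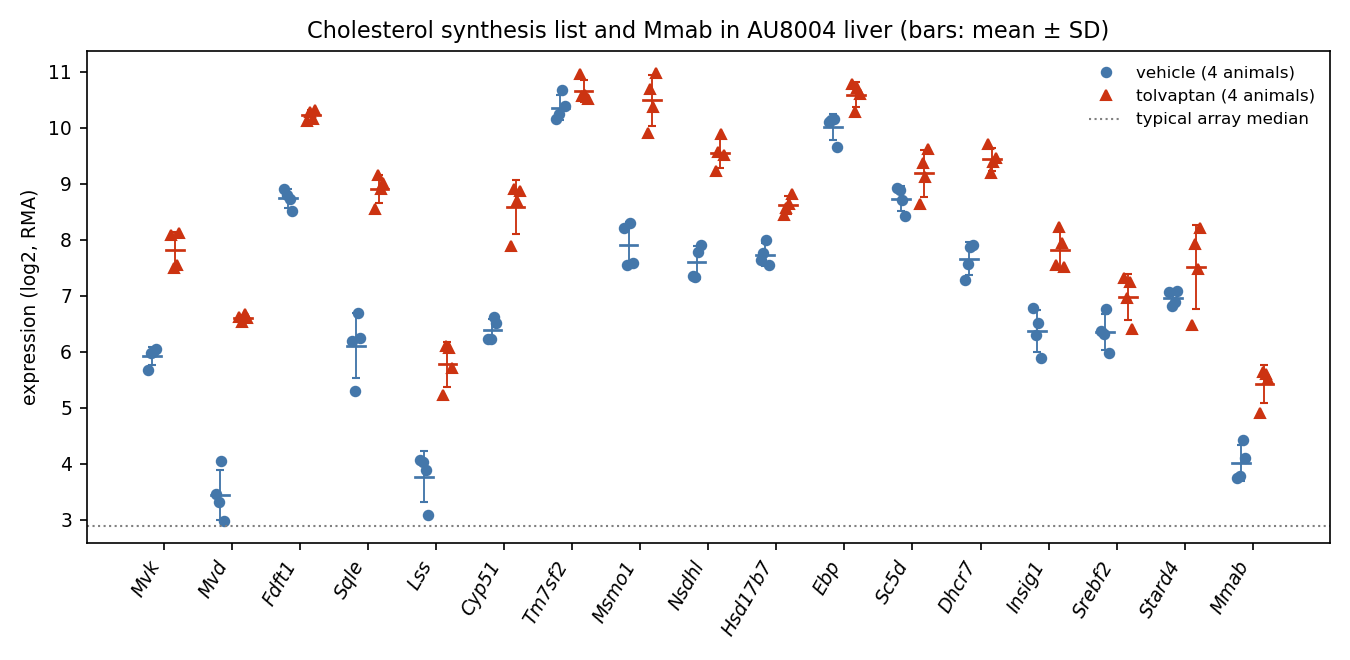
Expression (log2, RMA) of the 16 tested members of the cholesterol synthesis list, in the order of the route with the regulators last, and of Mmab, in 4 vehicle animals (circles) and 4 tolvaptan animals (triangles) of AU8004. Long bars are means, error bars are SD (n = 4) and the dotted line is the typical array median of 2.89. The groups are apart for 12 members and Mmab, and overlap for Tm7sf2, Sc5d, Srebf2 and Stard4.

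At the squalene steps, Fdft1 (squalene synthase) was 8.91, 8.80, 8.73 and 8.52 with vehicle and 10.13, 10.29, 10.15 and 10.32 with tolvaptan. The spread within each group was small beside the difference of 1.48 ± 0.36 (SE; adjusted p = 0.0771 over all arrays and 0.00275 on the 8 arrays). Sqle, squalene epoxidase, an oxygen-dependent control point of the route, was 6.19, 5.31, 6.69 and 6.25 with vehicle and 8.56, 9.15, 8.92 and 9.01 with tolvaptan. Its difference was 2.80 ± 0.75 (SE), or 6.97-fold, with an adjusted p of 0.148 over all arrays, 0.0485 without the off-strain arrays and 0.00275 on the 8 arrays. Lss closes the ring to lanosterol. It was 4.06, 4.03, 3.90 and 3.09 with vehicle and 5.24, 6.10, 6.08 and 5.71 with tolvaptan. Vehicle animal 4 lay lowest, and the lowest tolvaptan animal was still above all vehicle animals. The difference was 2.01 ± 0.47 (SE), with adjusted p = 0.0597 over all arrays, 0.00431 on the 8 arrays and 0.0362 over all genes and strains.

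After lanosterol, Cyp51, the demethylase that acts first, was 6.23, 6.22, 6.61 and 6.51 with vehicle and 7.88, 8.91, 8.69 and 8.87 with tolvaptan. This was 4.57-fold higher (2.19 ± 0.61, SE; adjusted p = 0.197 over all arrays and 0.00275 on the 8 arrays), and its 3 probe sets differed in the same direction. Msmo1, which oxidises the methyl groups at carbon 4, was 8.21, 7.54, 8.30 and 7.59 with vehicle and 9.91, 10.69, 10.37 and 10.98 with tolvaptan. The difference of 2.58 ± 0.67 (SE) had an adjusted p of 0.14 over all arrays, 0.0409 without the off-strain arrays and 0.00275 on the 8 arrays. Its partner Nsdhl was 7.36, 7.33, 7.79 and 7.92 against 9.22, 9.56, 9.89 and 9.51, a difference of 1.95 ± 0.56 (SE; adjusted p = 0.239 over all arrays and 0.00275 on the 8 arrays). Hsd17b7, the keto reductase of the same complex, lay between 7.54 and 8.00 with vehicle and between 8.44 and 8.82 with tolvaptan. Its difference of 0.88 passed none of these fits (adjusted p = 0.652 over all arrays and 0.0802 on the 8 arrays).

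Among the last steps, Dhcr7, the reductase that makes cholesterol from its 7-dehydro precursor, was 7.29, 7.57, 7.88 and 7.92 with vehicle and 9.70, 9.20, 9.40 and 9.46 with tolvaptan. The difference was 1.78 ± 0.43 (SE), with adjusted p = 0.0771 over all arrays, 0.0114 without the off-strain arrays and 0.00275 on the 8 arrays. Ebp, the sterol isomerase, was 10.11, 10.13, 10.15 and 9.66 with vehicle and 10.78, 10.28, 10.70 and 10.61 with tolvaptan. Its difference of 0.58 was small but the groups did not overlap (adjusted p = 0.126 over all arrays, 0.0409 without the off-strain arrays and 0.319 on the 8 arrays). The abundant Tm7sf2 (10.15 to 10.67 against 10.52 to 10.96) and Sc5d (8.42 to 8.92 against 8.64 to 9.62) overlapped, and their differences of 0.30 and 0.45 passed no fit.

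Regulators of the route were also measured. Insig1, the sterol-sensitive retention protein and itself an SREBP target, was 6.78, 6.30, 6.51 and 5.88 with vehicle and 7.56, 8.23, 7.95 and 7.52 with tolvaptan. It differed by 1.45 ± 0.47 (SE; adjusted p = 0.434 over all arrays and 0.00813 on the 8 arrays). Srebf2, which encodes SREBP2, overlapped between the groups (5.99 to 6.77 against 6.40 to 7.31) and differed by 0.62 in the probe set used and by 1.18 in a second one. The sterol carrier Stard4 overlapped in its brightest probe set, where tolvaptan animal 1 was lowest of all 8 animals at 6.48 and the other 3 lay between 7.48 and 8.20. Its 3 probe sets gave differences of 0.55, 0.98 and 1.27. Tolvaptan animal 1 was the lowest of its group for 9 of the 16 members and vehicle animal 4 of its group for 8.

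The differences of AU8004 were set beside those of the other 44 strains for the same genes, as a description, since the strain was selected on them. The list median of 1.63 was first among 45 strains, followed by AU8052 at 1.17, OR5035 at 1.01 and AU8024 at 0.84. All 16 members were also positive in AU8052, OR5035, AU8024 and AU8010, and 0 were in AU8033 and OR3154. A uniform sign was thus not particular to AU8004. Without the off-strain arrays, 3 of which carry the label AU8024, the order was the same and AU8024 stood at 0.95. AU8004 had the highest difference of all strains for 8 of the 16 members and the highest or second highest for 13. AU8052 was higher for Sqle (2.99) and Msmo1 (2.65). The levels in both arms are given beside the differences. The vehicle mean lay below the median of the other strains' vehicle means for 14 of 16 members, at ranks from 11 (Srebf2) to 45 (Ebp) of 45. The tolvaptan mean lay above the corresponding tolvaptan median for 16 of 16 and within the 3 highest strains for 11. For Mvd the vehicle mean of 3.45 stood against a median of 4.10 in the other strains, and the tolvaptan mean of 6.61 against 4.11. For Ebp the vehicle mean was lowest of all strains, at 10.01 against 10.64, and the tolvaptan mean of 10.59 stood at rank 22.

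**Figure D2:**
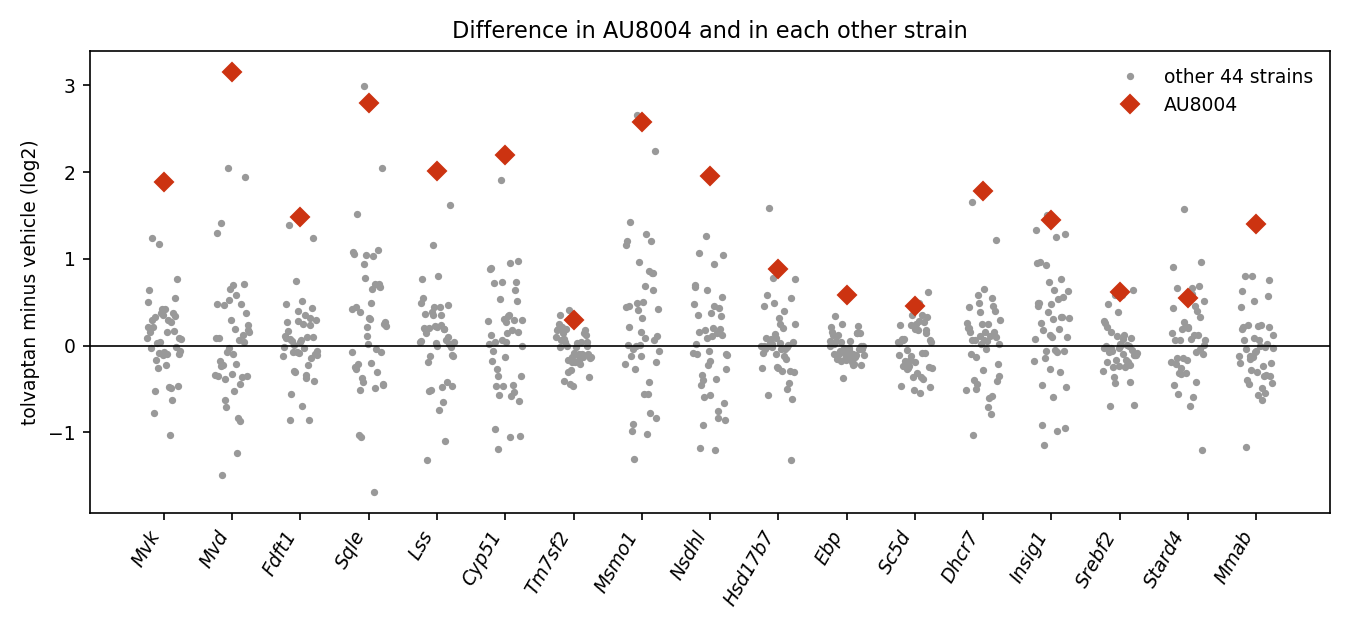
Difference between tolvaptan and vehicle (log2) for the 16 tested cholesterol synthesis genes and Mmab, with AU8004 as a diamond and each of the other 44 strains as a grey point. For Mvd, AU8004 lies at 3.15 and the next strain, AU8052, at 2.04. For 8 of the 16 members, among them Sqle, Msmo1 and Stard4, another strain lies higher.

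Whether the AU8004 difference departed from the mean of the other 44 strains was tested as a contrast of its own, which shares the AU8004 arrays on which the strain was selected. The test called 5 of 14125 genes (0.0354%), all higher in AU8004. Mvd exceeded the other strains' mean difference by 3.08 ± 0.64 (SE; adjusted p = 0.0313), Mvk by 1.79 ± 0.40 (adjusted p = 0.0415) and Mmab by 1.43 ± 0.31 (adjusted p = 0.0313). The dim Dnah1 exceeded it by 0.86 (adjusted p = 0.0415) and 2310034G01Rik by 0.80 (adjusted p = 0.0313). Without the off-strain arrays the count was 16, of which 14 were higher in AU8004 and 6 belonged to the cholesterol list (Mvd, Mvk, Lss, Dhcr7, Fdft1 and Ebp). Leaving out vehicle animal 1, vehicle animal 4 or tolvaptan animal 1 brought the count from 5 to 0, leaving out vehicle animal 2 to 1, vehicle animal 3 to 2, tolvaptan animal 3 to 3 and tolvaptan animal 2 to 9. Differences of Sqle (adjusted p = 0.392), Msmo1 (0.333) and Insig1 (0.66) from the other strains did not pass.

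Fatty acid synthesis genes were higher in part. Of 22 members tested, 18 had a positive difference (median 0.36), 6 did not overlap, all higher, and 0 passed over all arrays. Among all genes 59.9% were positive and 3.5% were higher without overlap. The list differed between scan dates. In scan 1, which holds animal 4 of each group, 21 of 22 were positive with a median of 0.75. In scan 3, 14 of 22 were positive with a median of 0.26. The medians over all genes were 0.15 in scan 1 and 0.05 in scan 3. On the 8 arrays 4 passed, namely Thrsp, Fasn, Acss2 and Mid1ip1. Thrsp (Spot14), a regulator of lipogenesis, was 10.02, 10.26, 9.68 and 9.71 with vehicle and 11.52, 11.28, 11.41 and 11.13 with tolvaptan. The difference was 1.42 (SE 0.85 over all arrays, adjusted p = 0.765, and SE 0.16 on the 8 arrays, adjusted p = 0.00431). Fasn, fatty acid synthase, was 8.37, 8.10, 8.52 and 8.35 against 9.43, 9.33, 9.94 and 9.40, a difference of 1.19 (adjusted p = 0.346 over all arrays and 0.0258 on the 8 arrays). Acss2, which makes cytosolic acetyl-CoA from acetate, differed by 0.86, and all 4 tolvaptan animals (9.18 to 9.57) lay above all vehicle animals (8.30 to 8.59). In Mid1ip1, a partner of acetyl-CoA carboxylase, animal 4 was low in both groups (6.73 and 7.86) and the difference was 1.01. The desaturase Scd1 differed by 0.14 and the carboxylase Acacb by -0.06. Near the same route, Aacs, the acetoacetyl-CoA synthetase that feeds sterol synthesis from ketone bodies, differed by 1.11 and also passed on the 8 arrays (adjusted p = 0.0252).

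Clock genes formed the second list by median. Of 18 tested, 13 had a positive difference, against 59.9% of all genes. The median of 0.45 was second of 45 strains with and without the off-strain arrays. The groups did not overlap for 5 genes with tolvaptan higher and 1 with tolvaptan lower, against 3.5% and 0.828% of all genes. In the fit over all arrays 0 passed. On the 8 arrays 5 passed. Dbp, an output factor of the clock, was 6.57, 6.79, 5.93 and 4.84 with vehicle and 9.14, 8.37, 8.34 and 7.48 with tolvaptan. Animal 4, from scan 1, was lowest in both groups, and the difference was 2.64 in scan 1 and 2.18 in scan 3. Per3, a repressor, was 5.38, 5.67, 4.99 and 4.45 against 6.46, 7.09, 7.00 and 6.24. Usp2 differed by 1.41, Ciart by 1.29 and Tef by 0.78, with no overlap. Arntl (Bmal1), the activator that peaks opposite to Dbp, lay lower with tolvaptan, at 4.24, 5.14, 5.02 and 5.39 against 5.99, 6.35, 5.91 and 6.12. Its difference of -1.14 did not pass (adjusted p = 0.746 over all arrays and 0.124 on the 8 arrays). The labels give no hour of necropsy.

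Derl3, a component of degradation at the endoplasmic reticulum, had the largest difference of all genes passing on the 8 arrays. It was 5.44, 5.63, 5.16 and 5.62 with vehicle and 10.17, 7.57, 8.47 and 8.83 with tolvaptan. The tolvaptan animals spread over more than 2 units and tolvaptan animal 1 was highest. The difference of 3.30 ± 0.88 (SE) had an adjusted p of 0.146 over all arrays, 0.0409 without the off-strain arrays and 0.0113 on the 8 arrays. In the other strains the median difference was 1.16, and the excess of AU8004 over their mean, 2.36, did not pass (adjusted p = 0.647). Other members of the folding and degradation list differed less. Of its 31 tested members 19 were positive (median 0.15), close to the 59.9% of all genes. The groups did not overlap for 3 (Derl3, Derl1 by 0.46 and Edem2 by 0.63), where 3.5% of all genes were higher without overlap. Hspa5, the main chaperone, differed by -0.57. Derl3 is also abundant in plasma cells. The other 14 tested members of the B cell and plasma cell list averaged 3.25 to 3.44 per vehicle animal and 3.20 to 3.35 per tolvaptan animal, with 9 of 14 positive, and Jchain lay between 2.14 and 2.97 in all 8 animals. Several plasma cell genes of that list were not analysed here, so these values do not cover them. The part of plasma cells in the Derl3 difference was not tested.

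Saa3, an acute phase amyloid, was 7.69, 7.60, 7.84 and 7.30 with vehicle and 10.41, 9.16, 10.04 and 10.18 with tolvaptan. It differed by 2.34 (adjusted p = 0.524 over all arrays and 0.00409 on the 8 arrays). Of 30 tested acute phase genes 18 were positive (median 0.07), close to the 59.9% of all genes. The groups did not overlap for 3, all higher, where 3.5% of all genes were higher without overlap. Lcn2 differed by 1.63 with wide overlap, since tolvaptan animal 1 lay at 8.80 and animals 2 and 3 at 5.19 and 5.09. Slpi, an antiprotease, differed by 1.19 (adjusted p = 0.709 over all arrays) and was highest in tolvaptan animal 4 at 6.70. Alas1, which sets the rate of heme synthesis, was 10.73, 9.87, 10.45 and 10.15 against 11.51, 11.33, 11.83 and 11.88. Its difference was 1.34 (adjusted p = 0.582 over all arrays and 0.0389 on the 8 arrays). OR3393 was nearly the same at 1.33, and the excess of AU8004 over the other strains' mean did not pass (adjusted p = 0.693 in limma). Of 12 tested heme genes 8 were positive (median 0.24), against 59.9% of all genes.

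**Figure D3:**
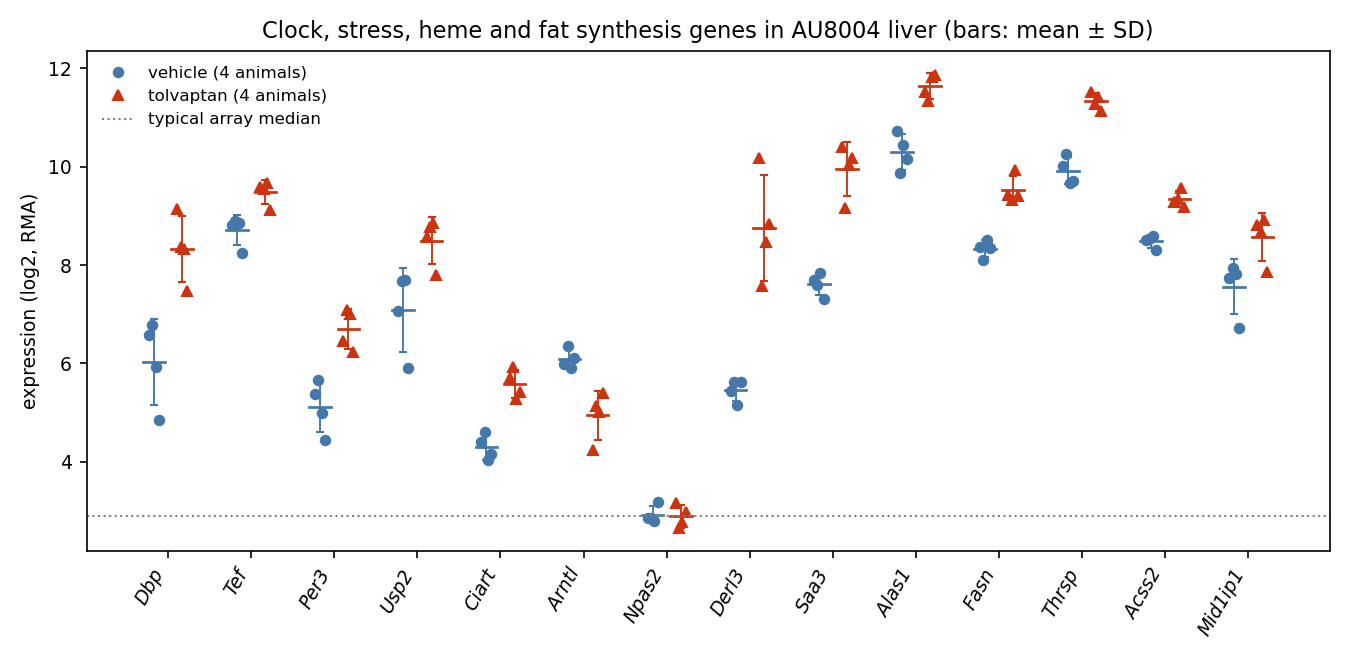
Expression (log2, RMA) of clock genes, Derl3, Saa3, Alas1 and fat synthesis genes in 4 vehicle animals (circles) and 4 tolvaptan animals (triangles) of AU8004, with mean, SD (n = 4) and the typical array median as a dotted line. Derl3 spreads from 7.57 to 10.17 with tolvaptan. Arntl is lower with tolvaptan without overlap, and Npas2 lies at the array median in both groups.

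Other genes passed on the 8 arrays outside these lists. Aldoc, the aldolase found mainly in brain, was 5.76, 5.59, 6.17 and 6.35 with vehicle and 7.84, 7.65, 8.19 and 7.49 with tolvaptan, a difference of 1.82 that also passed without the off-strain arrays (adjusted p = 0.0485). Tlcd2 was tightly grouped, at 6.77 to 6.90 with vehicle, the lowest vehicle mean of 45 strains, and at 7.83 to 8.33 with tolvaptan. Rdh11, a retinal reductase, differed by 1.29 and Cenpm, a centromere protein, by 1.69, and both were first of 45 strains. Itih5 differed by 1.66, Fam47e by 1.51, Inmt by 1.20, Tmco6 by 1.09 and Gamt, which makes creatine, by 0.86. The 2 probe sets of Tmco6 disagreed in sign. Of the 33 genes passing on the 8 arrays, 31 did not overlap and 18 had the highest difference of all strains, and 11 also passed without the off-strain arrays. Among all genes 3.5% were higher without overlap. The 33 were picked by their difference on these same arrays, so the counts follow largely from that choice.

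In the lower direction 0 genes passed over all arrays and 0 on the 8 arrays. Bicd2 and Tubg2 fell in the fit without the off-strain arrays. Tubg2, a gamma tubulin, was 3.46, 2.79, 2.31 and 3.05 with vehicle and 1.92, 1.80, 2.09 and 2.05 with tolvaptan, below the array median (adjusted p = 0.0381). Bicd2, a dynein adaptor, overlapped, and its difference of -0.87 had the opposite sign in scan 1 (0.34). Of the genes with the lowest unadjusted p among those lower without overlap, the platelet-type phosphofructokinase Pfkp differed by -1.02 (3.50 to 4.72 against 2.88 to 3.39), Med14 by -0.73 and Itgav, an integrin chain, by -0.53. Zc3h11a differed by -1.02, with tolvaptan animal 1 at 4.90 and the others between 6.36 and 6.81. Only 2 of the 5 probe sets of Itgav had the same sign. C8a, a chain of complement C8, lay between 11.56 and 11.78 with vehicle and at 9.97, 11.25, 10.99 and 11.08 with tolvaptan (-0.83, adjusted p = 0.565). Cdkn1a, a p53 target that restrains the cell cycle, differed by -1.59 with overlap (adjusted p = 0.779).

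Across 49 lists (34 pathways and 15 cell types), cholesterol synthesis was the only one with a member called over all arrays. Its median of 1.63 stood above clock at 0.45 and fatty acid synthesis at 0.36. Glutathione S-transferases followed at 0.27 (12 of 16 positive, 4 higher without overlap, none past the test). Among all genes 59.9% were positive and 3.5% were higher without overlap. Drug response lists were near the median of all genes. CAR and PXR targets had a median of 0.14 (23 of 31 positive). Their most different members were Alas1, described above at 1.34 and passing on the 8 arrays, and Gstm3 at 0.78 without overlap. Cyp2b10 stood at 0.25 ± 1.10 (SE; adjusted p = 0.975) and Cyp3a11, the main drug-metabolising cytochrome, at -0.12 (adjusted p = 0.956). NRF2 targets had a median of 0.13, led by Gstm3 at 0.78 and Pgd at 0.64, and AhR targets one of 0.04, led by Cyp1a2 at 0.36. The hepatic vasopressin receptor gene Avpr1a differed by -0.44 (adjusted p = 0.866), with animal 4 low in both groups (4.62 and 4.49). In the osmotic stress and vasopressin list 8 of 17 were positive, Sgk1 at -0.63 and Agt at 0.60.

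Stress and damage lists showed no called member. The integrated stress response had a median of 0.05 (Trib3 0.51), heat shock -0.02 (Hspa1b 0.50), p53 targets 0.01, apoptosis and liver injury 0.09 (Cdkn1a -1.59, Bmf 0.56) and the immediate early genes 0.15 (Maff 0.91, Myc 0.81). With 1 animal left out, Hspa1b ran from 0.13 to 0.80 and Bmf from 0.08 to 0.89, the latter lowest without tolvaptan animal 1 at 5.14. NF-kB targets and chemokines had a median of -0.04, and the cell cycle list one of -0.06 with Ube2c at -0.69. Metabolic lists were likewise near the median of all genes: PPAR-alpha targets at -0.08 (Acot1 -1.07), gluconeogenesis and glycogen at -0.04 (Ppp1r3c -0.91), bile acid synthesis at 0.03 (Cyp39a1 -0.98, Cyp7a1 0.53), bile acid and drug transporters at 0.07 (Slco1a1 -0.81), and the urea cycle and amino acid catabolism at -0.01 (Kynu -0.44). Cyp39a1 lay at 3.14 in tolvaptan animal 1 and between 5.45 and 7.15 in the other 3, and its difference ran from -1.45 to -0.11 with 1 animal left out, as did that of Cyp7a1 from 0.28 to 0.94. Growth hormone signalling had 9 of 15 positive, with Cish at 0.84 and Socs3 at 0.82. Metallothionein and glucocorticoid genes had the lowest pathway median, -0.18, with Slc39a10 at -0.94. Complement and coagulation genes had 10 of 34 positive and a median of -0.16. For iron handling (0.11), hypoxia and glycolysis (-0.03), proteasome (0.05), respiratory chain (0.05) and cytosolic ribosomal proteins (0.10), no member passed either.

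Cell type lists had medians between -0.20 and 0.22. The extremes were the periportal hepatocyte list at -0.20 (4 of 18 positive, Hamp2 -0.74) and the erythroid list at 0.22 (7 of 8 positive), while pericentral hepatocyte genes were at 0.17 (14 of 17 positive, Gulo 0.58). Kupffer cell and macrophage genes had 6 of 23 positive (median -0.16), MHC class II genes 3 of 10 (-0.14), stellate cell and matrix genes 10 of 27 (-0.13) and sinusoidal endothelium 17 of 24 (0.07). Stab2, a scavenger receptor of the sinusoid, lay between 7.93 and 8.11 with vehicle and between 7.52 and 7.84 with tolvaptan (-0.35, adjusted p = 0.789). Bile duct (0.09), neutrophil (-0.01), T and NK cell (0.06), B cell and plasma cell (0.07), adipocyte (0.16), exocrine pancreas (0.00), kidney (0.00) and hepatocyte (-0.05) lists were close to the median of all genes. Derl3 on the B cell and plasma cell list was the only gene of any cell type list to pass on the 8 arrays. Fewer cells of a type and less RNA per cell cannot be told apart in whole tissue. The part of cell mixture in the differences above was not tested.

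**Figure D4:**
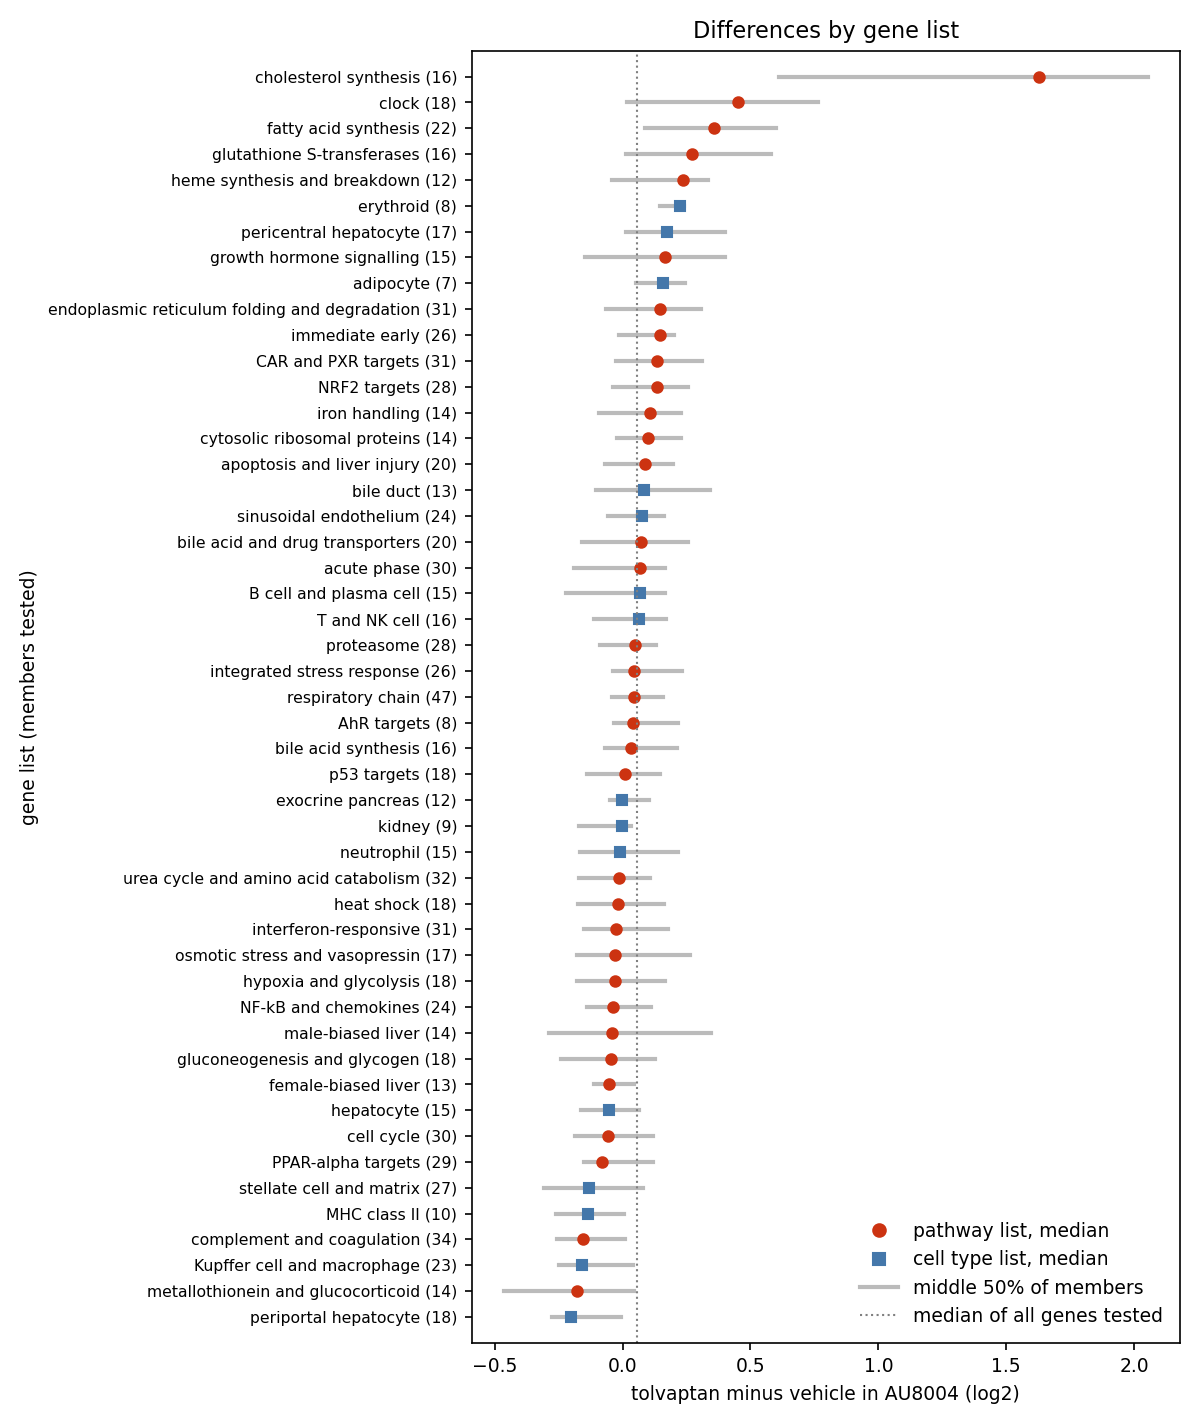
Median difference between tolvaptan and vehicle in AU8004 (log2) for 34 pathway lists (circles) and 15 cell type lists (squares), with grey bars over the middle 50% of members and the number of members tested in brackets. The dotted line is the median of all 14125 genes, 0.06. Cholesterol synthesis stands at 1.63, and the cell type lists lie between -0.20 and 0.22.

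Genes that responded in the other strains were then read in AU8004, where they had been chosen without any AU8004 array. The mean over the other 44 strains called 43 genes higher and 23 lower. In AU8004, 35 of the 43 had a positive difference (median 0.23, against 0.16 in the other strains), while 11 of the 23 had a negative one (median 0.01, against -0.14). Over all genes 8465 of 14125 (59.9%) were positive in AU8004. Without the off-strain arrays the lists held 14 and 28 genes, of which 11 and 11 had the same sign in AU8004. The number of genes called in AU8004 alone, 6, ranked 11 of 45 strains, and 29 without the off-strain arrays ranked 6.

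The level of AU8004 over both treatments does not enter the treatment difference and was tested against the other 44 strains. SE and p-values of this test rest on the spread between animals within groups. They do not measure the spread between strains or how unusual 1 genotype is among 45. At an adjusted p under 0.05 and a difference of at least 1, 117 genes (0.828%) were higher and 112 (0.793%) lower in AU8004. AU8004 had the highest level of 45 strains for 41 of these 229 genes and the lowest for 26. The values use all arrays. Without the off-strain arrays 233 genes passed, and with the mean of all probe sets of a gene 179 passed. Among the highest were cytochromes. Cyp2b9 was 9.99, 9.88, 7.98 and 9.24 with vehicle and 9.30, 9.96, 10.62 and 9.58 with tolvaptan, while the other strains' means lay between 3.87 and 7.93. Its level was 4.03 ± 0.42 (SE) above the other strains (adjusted p = 1.89e-16). Cyp2b13 (3.33), Cyp2c39 (2.79) and Cyp2c38 (2.37) were also highest of 45. Genes of these families are close copies, so their probe sets may read one another. Cyp2b9 and Cyp2b13 are known as female-biased genes in mouse liver, and these animals were males.

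Of the female-biased list 3 of 13 tested genes were called higher, Cyp2b9, Cyp2b13 and Cux2 (1.62, highest of 45), and Sult1e1 was called lower (-1.06). The level was called higher for 0.828% of all genes and lower for 0.793%. Of the male-biased list 2 of 14 were called lower. Hsd3b5, a steroid enzyme, was the lowest of 45 strains, with a vehicle animal 3 of 6.68 and the others between 4.22 and 4.66, and tolvaptan values from 2.30 to 5.31, against 5.19 to 10.80 in the other strains (-3.78 ± 0.51, SE; adjusted p = 3.38e-10). C6, a complement component, was at -1.31 and ranked 44. Vehicle animal 3 had the lowest Cyp2b9 and Cyp2b13 (3.57) and the highest Hsd3b5 of the 4 vehicle animals.

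Part of the interferon-responsive list stood higher in AU8004. Of 31 tested, 11 were called higher and 0 lower in the level over both treatments, with a median of 0.57 above the other strains. The shares over all genes were 0.828% higher and 0.793% lower. Ifit1 was 6.38, 5.57, 5.21 and 4.27 with vehicle and 5.65, 5.38, 4.38 and 5.78 with tolvaptan, against 2.58 to 4.83 in the other strains (2.13 ± 0.22, SE; adjusted p = 2.52e-16). Usp18 (1.79), which restrains interferon signalling, Irgm1 (1.59), Rsad2 (1.52) and the factor Irf7 (1.33) were also highest of 45. The treatment difference of the same list had a median of -0.02, with 14 of 31 positive and none called. It had opposite signs on the scan dates. In scan 1, which holds animal 4 of each group, 27 of 31 were positive (median 0.485), and in scan 3 7 of 31 (median -0.16). The medians over all genes were 0.15 in scan 1 and 0.05 in scan 3.

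Other single genes also had large level differences from the mean of the other strains. Ptgds, which makes prostaglandin D2, lay between 7.45 and 9.24 in all 8 animals and between 2.81 and 7.75 in the other strains (4.02 ± 0.43, SE; adjusted p = 1.59e-15). Eci3, an enoyl-CoA isomerase, was highest of 45 at 3.52 above the others, Col5a2 ranked 4 at 3.70 and Ugt3a2 ranked 18 at 2.68. Ugt3a2 did not stand apart, with a level of 11.08 against a median of 10.48 in the other strains, which ran from 3.38 to 11.55. At the low end, Isca1, an iron-sulphur assembly factor of mitochondria, lay between 3.77 and 4.60 in AU8004 while the median of the other strains was 9.47 (-4.78 ± 0.20, SE; adjusted p = 3.94e-63). The lowest of the other strains lay at 4.30. Isca1 was read by 1 probe set, as were Eci3, Ctse, Slc3a1 and Otud6b. Whether sequence differences between strains alter the reading of a probe set was not tested, so these levels describe probe signal. Ctse (-3.33), Slc3a1 (-3.28), Nlrp12 (-3.14), Otud6b (-3.05), Abca3 (-2.99) and Obp2a (-2.91) ranked from 35 to 43. Of the 16 tested genes of the cholesterol list 1 was called higher in level, where 0.828% of all genes were. The median level of the list was 0.63 above the other strains, a mean over vehicle animals below and tolvaptan animals above them.

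**Figure D5:**
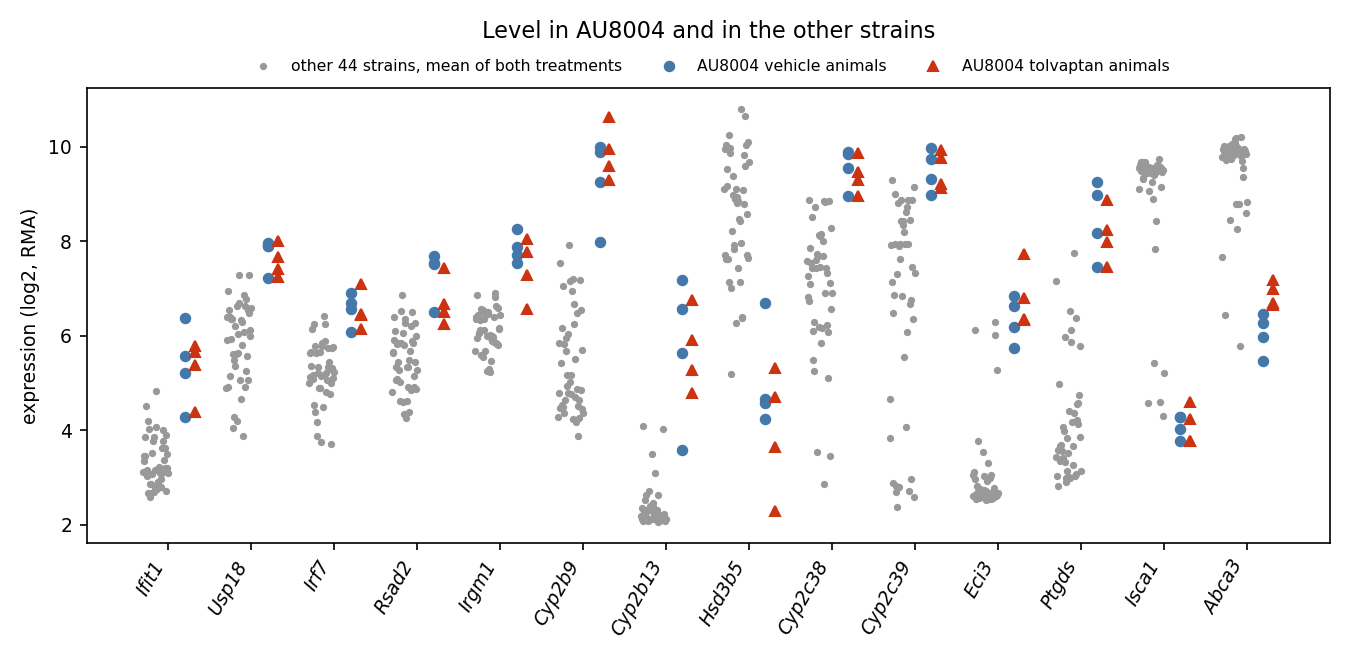
Expression (log2, RMA) of genes with a high or low level in AU8004, for 4 vehicle animals (circles) and 4 tolvaptan animals (triangles) of AU8004 and the mean of both treatments in each of the other 44 strains (grey). Ifit1 and Cyp2b9 have AU8004 animals above the means of most other strains, and Isca1 lies between 3.77 and 4.60 where the median of the other strains is 9.47.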

How the data were processed

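Liver RNA was read on 1-colour Affymetrix arrays, 1 animal each. Per the submitters' processing notes, the deposited log2 values were made by the authors with RMA in the Affymetrix Expression Console, with versions not given in the sources used here. The sources used here do not say if the arrays were normalized as 1 set. Of 42597 probe sets, 27691 had 1 gene symbol, 493 several, 14376 none and 37 were controls. For a gene with several such probe sets, the brightest over all arrays stood for it. A gene was kept when above the array median in at least 4 arrays, which left 14125 genes.

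limma 3.58.1 in R 4.3.3 fitted 1 mean per strain and treatment plus scan (6 dates) over 354 arrays, with 259 residual degrees of freedom, or over the 8 AU8004 arrays with 5. Two-sided p-values were adjusted over all genes by Benjamini and Hochberg's method, with a threshold of 0.05. Arrays have no read depth, and their number limits the precision. The steps were tested on simulated arrays.

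The strain, the gene lists and the tests were chosen with earlier results of these data known. Genes named were the called ones, up to 4 called or else the 1 or 2 most different members of each list, the 8 highest and 8 lowest levels, and Avpr1a, Cyp3a11, Cyp2b10, Alas1, Derl3, Saa3, Stab2 and Slpi. Where no gene was called lower, the 5 with the lowest unadjusted p and no overlap were taken. The genes passing on the 8 arrays, and other single genes named were chosen after their values were seen. Animals are numbered within a group by order only. Alternatives changed the scan term, the arrays off their strain, the filter, the choice of probe set, the normalization, the spread model, the arrays fitted and each animal in turn.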

Additional observations from a re-analysis of the deposited data

Results flagged for a closer look

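In groups of 4, 66 sets of values were examined for a sample far from the others, and 2 stood out, where chance gives about 1 in 20. Vehicle animal 4 had Lss at 3.09, against 3.90 to 4.06 in the other 3 vehicle animals, and Ebp at 9.66, against 10.11 to 10.15. Vehicle animal 4 was read in scan 1, as was tolvaptan animal 4. Within scan 3, which leaves out animal 4 of both groups, the differences were 1.80 for Lss and 0.46 for Ebp.

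Differences in AU8004 that departed from the mean of the other 44 strains, by a test of the difference itself, were 3.08 for Mvd, 1.79 for Mvk, 1.43 for Mmab, 0.86 for Dnah1 and 0.80 for 2310034G01Rik. The last 2 genes lie near the array median. The test shares the AU8004 arrays on which the strain was selected. Without vehicle animal 1, vehicle animal 4 or tolvaptan animal 1 it called 0 genes.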

How the results depend on the processing

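The cholesterol list median stayed between 1.55 and 1.69 in every setting run. The count of genes called in AU8004 (6) became 29 without arrays off their strain, 33 on the 8 arrays with scan, 23 on them without scan and 0 within scan 3, and ran from 0 to 6 leaving out 1 animal. The count against the other strains (5) became 16 without off-strain arrays and 3 after quantile normalization, and ran from 0 to 9 leaving out 1 animal. Fewer arrays were fitted in the settings that leave arrays out, and otherwise the cause was not tested. The count of strain-level genes (229) ran from 179 to 245. Genes called in the other 44 strains, counted as 35 plus 11 with the same sign in AU8004 (46), became 22 without off-strain arrays. The Cyp2b10 difference ran from -0.13, without vehicle animal 1, to 0.91, without vehicle animal 4, and passed in none of these. Of 145 differences recomputed, no other turned sign. Differences of other genes named in the text, such as Scd1, Acacb, Hspa5 and Arntl, were not recomputed. No paired analysis was possible because the labels give no replicate numbers and the animals of the 2 groups are separate.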

Other observations

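Without the off-strain arrays several genes outside the lists passed in AU8004. Abca3, a lipid transporter best known from lung surfactant, was 6.46, 5.97, 6.27 and 5.47 with vehicle and 6.99, 6.65, 7.17 and 6.68 with tolvaptan, a difference of 0.83 with an adjusted p of 0.0029 in limma (0.545 over all arrays). The same gene was among the lowest strain levels of AU8004. Wfs1, a membrane protein of the endoplasmic reticulum, was 5.38, 5.34, 5.58 and 3.81 against 6.20, 5.94, 6.12 and 6.11 (adjusted p = 0.0409), and Dad1, a subunit of the oligosaccharyltransferase, differed by 0.59 (adjusted p = 0.0377). Hdac7 differed by 0.71, Mrpl23 by 0.81, Slc2a8, a glucose transporter, by 0.72, Pstpip2 by 0.83 and Nubpl by 0.74. Cdhr2 differed by 1.13 through tolvaptan animals 1 and 2 (5.17 and 4.02), while animals 3 and 4 lay at 1.88 and 2.09. Ccdc25, Htr2b and Tnfrsf19 also passed, by 1.05, 0.66 and 1.07. Of the 29 genes passing there, 7 had both group means below 4.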
